A study of Mus musculus with 4 samples.

Results

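Meiotic entry genes of the mouse testis are described here: Stra8, Rec8 and Ugt8a, with Meioc, Ythdc2, Stag3, Smc1b and Dazl added wherever the authors' table lists a transcript of them. The table lists transcripts for 4 of these 8 genes, Stra8 with 2 transcripts and Rec8, Ugt8a and Smc1b with 1 each, which makes 5 of the 11304 transcripts in the table. No transcript of Meioc, Ythdc2, Stag3 or Dazl was among those listed, and these genes were not analysed here. Testis RNA was sequenced from C57BL/6 mice at postnatal day 56, in 2 libraries labelled Ppp2ca-cKO (genotype Ppp2ca-/-) and 2 libraries from wild-type (WT) mice. The gene codes for a catalytic subunit of PP2A (protein phosphatase 2A), and the title of the series ties it to meiosis initiation. The labels do not name the Cre line or the cells in which the gene was removed, and they give the left testis as the source without saying whether animals were pooled. The table holds 0 transcripts of Ppp2ca, so its loss was not checked and each library is called by its label.

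Retinoic acid, made in the seminiferous tubule, switches on Stra8 in differentiating spermatogonia and preleptotene spermatocytes. The STRA8 protein, together with its partner MEIOSIN, turns on genes of meiotic prophase, while MEIOC and YTHDC2 hold that programme in place at the level of RNA. REC8 and SMC1B are subunits of the meiotic form of cohesin, the ring that holds sister chromatids together. In the first meiotic division, shugoshin proteins bring PP2A to centromeres, where it keeps REC8 unphosphorylated and so protected from the protease separase. UGT8A adds galactose to lipids, and in the testis its product is the precursor of seminolipid, a sulphated lipid of spermatocytes.

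The libraries held 18684357 and 19835025 reads in the cKO and 17611894 and 19783839 in the WT. The table holds only transcripts that the authors called (adjusted p up to 0.05, log2 fold change 1 or more in size), so a listed member differed by construction. The authors listed 5.76% of the 64840 transcripts they tested as higher in the cKO and 11.7% as lower. Read counts divided by the authors' size factors are called normalized counts below. Log2 fold changes are cKO over WT with standard errors (SE) from edgeR's quasi-likelihood fit of the listed transcripts. Its p-values were adjusted by Benjamini-Hochberg for 64840 transcripts, with every transcript outside the fit ranked last. In the authors' test 13739 transcripts had an adjusted p under 0.05, and only 11304 are listed. Low p-values are thus missing from the ranks, which raises the adjusted p-values given here. FPKM values (fragments scaled to transcript length and library reads) follow library totals instead. On library totals log2 fold changes are 0.53 higher, so FPKM printed beside a fold change do not give the same ratio. In that fit 10.4% of the 10716 tested transcripts passed as higher and 41.3% as lower, with a median log2 fold change of -1.70. Spermatid markers stood at 5988 and 19787 summed normalized counts in the cKO and at 235530 and 260120 in the WT. In whole-testis RNA a smaller number of cells of a type and less RNA per cell cannot be told apart, and this holds for every value below.

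The members went in both directions. Of the 5 listed member transcripts, 1 passed as higher in the cKO (Ugt8a) and 1 as lower (Rec8), beside 10.4% higher and 41.3% lower among all tested, so the counts alone say nothing about the members. Both Stra8 transcripts and Smc1b did not pass in this refit, though they passed in the authors' own test. In the authors' deposited table the log2 fold changes were 1.13 and 3.21 for the 2 Stra8 transcripts, -2.28 for Rec8, 4.67 for Ugt8a and -1.08 for Smc1b. The adjusted p-values of the authors' test were 0.00315 and 0.00962 for Stra8, 1.28e-14 for Rec8, 0.000687 for Ugt8a and 2.08e-05 for Smc1b. These values selected the listed transcripts, so they are not separate support.

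**Figure D1:**
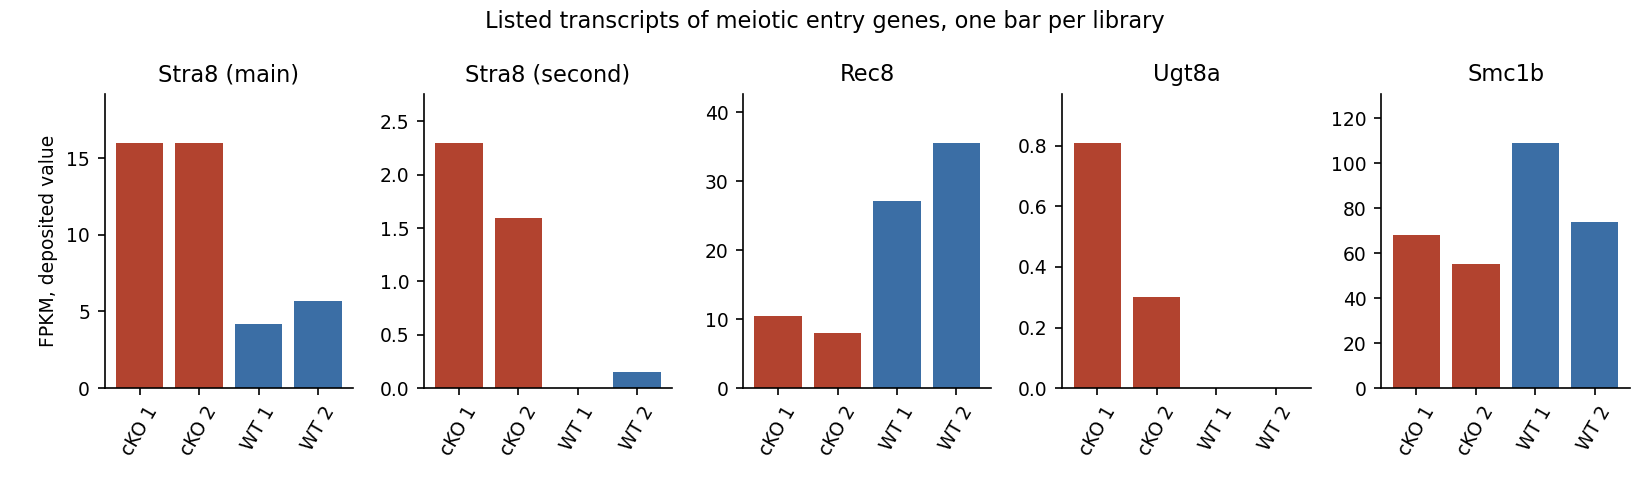
Deposited FPKM (fragments scaled to transcript length and to the library's reads) of each listed member transcript, with 1 bar per library, the cKO in red and the WT in blue, and a separate axis starting at 0 in each panel. The Stra8 transcripts and Ugt8a are higher in both cKO libraries, and Rec8 and Smc1b are lower in both.

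Stra8 (gene ENSMUSG00000029848, chromosome 6, 34920163 to 34939344, plus strand, GRCm38) is described first, since it acts at the top of the pathway. Its more abundant listed transcript, ENSMUST00000114999 (the main transcript), had 371.19 and 385.17 estimated reads in the cKO libraries and 91.51 and 137.68 in the WT libraries. As a level per length this was 16.01 and 16.00 FPKM in the cKO and 4.18 and 5.70 FPKM in the WT. Both cKO libraries were above both WT libraries on either scale, and the cKO libraries were close to each other. Normalized counts were 304.0 ± 5.81 in the cKO and 136.6 ± 34.9 in the WT (SD, n = 2 each), with a log2 fold change of 1.15 ± 0.34 SE that did not pass (edgeR adjusted p = 0.12). DESeq2 on the same size factors, refitted to listed transcripts alone, gave 1.15 ± 0.45 and an adjusted p of 0.0818. In the authors' own test of all transcripts the adjusted p was 0.00315. With 2 libraries against 2, an exact permutation test of a single transcript cannot go below p = 0.333 (two-sided).

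The call on Stra8 depended on the scaling between libraries. With library totals in place of the authors' size factors, which moves every log2 fold change up by 0.53, the value was 1.68 ± 0.33 and passed (edgeR adjusted p = 0.0359). Scaled to equal summed counts of 15 Sertoli cell markers, which moves every value down by 1.29, it turned to -0.14 ± 0.33 (adjusted p = 1). Sertoli cells line the tubule and do not enter meiosis. Of 22 such markers the table lists these 15, all with a log2 fold change above 0 under the authors' size factors. Setting their sum equal thus moves values down by that selection, so this scaling is no neutral check here or below. The counts of member transcripts moved with the background. With library totals 3 members were higher and 1 lower (26.1% and 29.8% of all tested), and with equal Sertoli counts 0 were higher and 2 lower by edgeR (2.96% and 66.9% of all tested), with 2 members higher at an unadjusted p under 0.05. Under TMM and RLE, which centre the table itself, 3 were higher and 0 lower, beside 32.3% and 11.9% of all tested for TMM and 32.5% and 12.4% for RLE. At an unadjusted p under 0.05, 1 member was lower under TMM and 0 under RLE. DESeq2 called 2 higher and 2 lower, beside 18.6% and 54.2%.

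**Figure D2:**
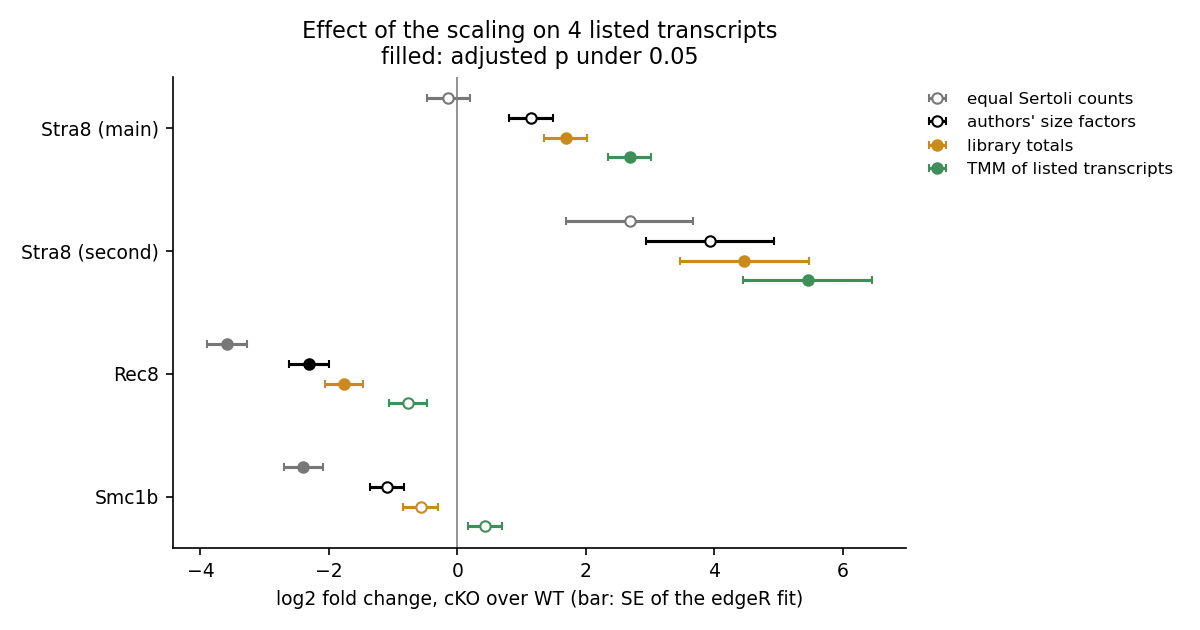
Log2 fold change (cKO over WT) of 4 listed member transcripts under 4 scalings, with bars for the SE of the edgeR fit and filled points for an adjusted p under 0.05. The main Stra8 transcript lies at 1.15 with the authors' size factors and at -0.14 with equal Sertoli counts, Rec8 stays below 0 under the 4 scalings drawn, and Smc1b turns above 0 under TMM.

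The other listed Stra8 transcript, ENSMUST00000031876 (the second, longer transcript), starts 797 bases upstream of the first. It had 68.31 and 49.4 estimated reads in the cKO and 0 and 4.53 in the WT, or 2.30 and 1.59 FPKM against 0 and 0.15 FPKM. Its log2 fold change was 3.93 ± 1.00 (edgeR adjusted p = 0.0778), from a WT level of only about 5 reads. It passed with library totals (4.47 ± 1.00, adjusted p = 0.0498) and by DESeq2 (adjusted p = 0.0488). Without WT replicate 2, which holds all of its WT reads, the fitted value was 8.70 (adjusted p = 0.161), and without WT replicate 1 it was 2.98 (adjusted p = 0.282).

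The pair of transcripts has the same coding sequence of 1179 bases, for a protein of 393 residues, in GENCODE vM21. They differ in the 5′ untranslated exons and by 2 bases at the 3′ end, with 348 exonic bases found only in the longer one. Of the reads assigned to the pair, the longer one took 15.5% in cKO replicate 1 (68 of 439, 95% Wilson interval 12.4% to 19.2%) and 11.3% in cKO replicate 2 (49 of 434, 8.65% to 14.6%). In the WT it took 0 of 92 reads in replicate 1, with a 95% Wilson upper limit of 4.01% (3 reads would be 3.26%), and 3.50% in replicate 2 (5 of 143, 1.50% to 7.92%). Both cKO shares were above both WT shares. The intervals do not overlap between the genotypes, but they take rounded estimates as counted reads. They leave out the error of dividing shared reads and any spread between animals, so no conclusion is drawn from the gap. Reads of the shared exons were divided between the transcripts by the authors' estimation, and another 2 of the 4 annotated Stra8 transcripts are not in the table.

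**Figure D3:**
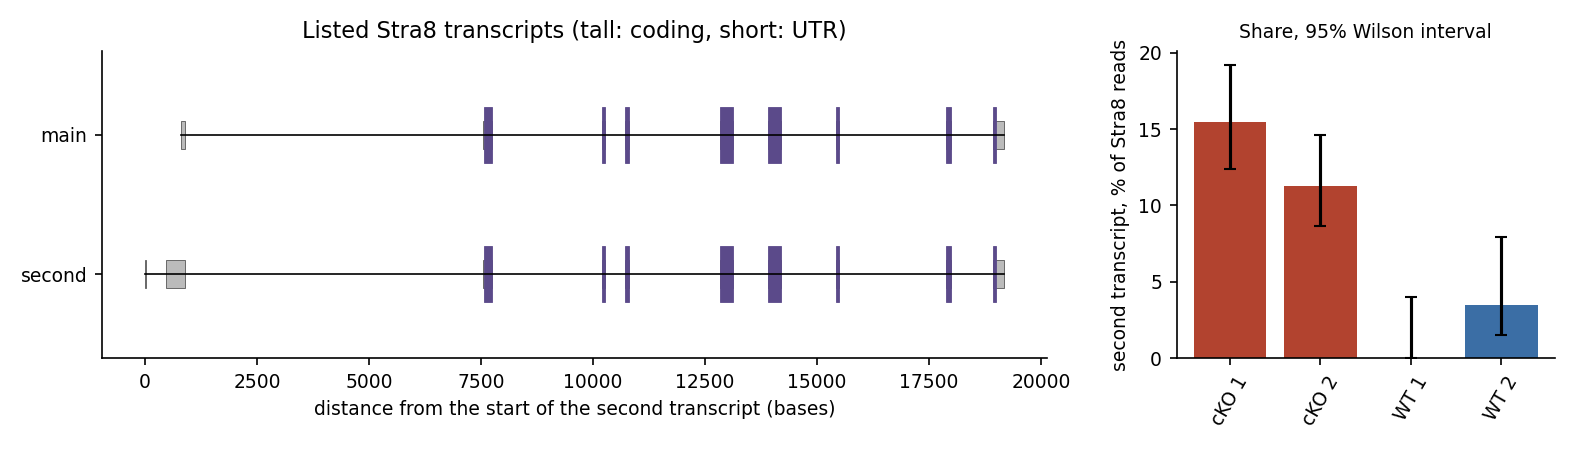
Left, exons of the listed Stra8 transcripts by distance in bases from the upstream start, with coding parts tall and untranslated parts short. Right, of the reads assigned to the listed pair, the share of the longer transcript in each library with 95% Wilson intervals on rounded estimates. It is 15.5% and 11.3% in the cKO (red) and 0 and 3.50% in the WT (blue).

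Stra8 is a target of retinoic acid receptors, which bind repeats of the hexamer AGGTCA, so the bases in front of the RefSeq start (position 34920948) were searched for it, on both strands, together with the variant GGGTCA and with CCTCAG, the core of the motif bound by STRA8 and MEIOSIN. The 250 bases before the start hold AGGTCA at 194 and at 38 bases before it, both on the strand of the gene, and they hold CCTCAG on the opposite strand at 23 bases before it, with no overlap. The matches to AGGTCA are shown because Stra8 is known to be induced by retinoic acid, with the hexamer in capitals (RefSeq sequence, GRCm38.p6, plus strand, chr6:34920742-34920771 and chr6:34920898-34920927).
Stra8 distal: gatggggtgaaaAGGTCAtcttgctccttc
Stra8 proximal: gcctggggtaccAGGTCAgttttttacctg
Both stretches lie within an untranslated exon of the longer Stra8 transcript, upstream of the start of the shorter one. Of 32851 RefSeq promoter windows of the same length, 14.0% hold AGGTCA at least once and 1.34% hold it 2 or more times, 11.65% hold GGGTCA and 22.35% hold CCTCAG. A match describes the letters only.

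Rec8 (gene ENSMUSG00000002324, chromosome 14, 55618037 to 55625395, plus strand, GRCm38) fell in the cKO. Its full-length transcript ENSMUST00000002395, the only one of 4 annotated that is listed, had 384.69 and 307.2 estimated reads in the cKO and 941.18 and 1374.1 in the WT. Per length this was 10.45 and 7.97 FPKM in the cKO and 27.09 and 35.63 FPKM in the WT. The groups did not overlap, and the WT libraries lay further apart than the cKO libraries. Normalized counts averaged 278.3 ± 46.0 in the cKO and 1380 ± 324 in the WT (SD, n = 2 each), and the log2 fold change of -2.31 ± 0.31 passed (edgeR adjusted p = 0.0207). It also passed with library totals (-1.77 ± 0.29, adjusted p = 0.0261), and against a fold of 2 with glmTreat (adjusted p = 0.046). Among all tested transcripts, whose median was -1.70, 37.95% had a log2 fold change below that of Rec8.

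Rec8 lost its call under scalings that take most listed transcripts as unchanged, at -0.76 ± 0.30 with TMM (adjusted p = 0.406) and -0.73 ± 0.31 with RLE (adjusted p = 0.49). Without WT replicate 1 it was -2.53 (adjusted p = 0.135) and without WT replicate 2 it was -2.05 (adjusted p = 0.161), while edgeR without a WT library called 0 of all listed transcripts. The bases in front of the annotated Rec8 starts are shown because the gene is also known to respond to retinoic acid (RefSeq sequence, GRCm38.p6, plus strand, chr14:55617916-55618036).
Rec8 upstream: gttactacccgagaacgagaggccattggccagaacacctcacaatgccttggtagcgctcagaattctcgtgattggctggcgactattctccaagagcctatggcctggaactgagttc
No letters are capitals here, since none of the hexamers searched for Stra8 was found in the 250 bases before the RefSeq start of Rec8 (0 matches), and 0 were found before that of Smc1b. Before the RefSeq start of Ugt8a, which is not the start of its listed transcript, CCTCAG was found once, on the opposite strand at 32 bases before it.

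Smc1b (gene ENSMUSG00000022432, chromosome 15, 85064689 to 85131964, minus strand, GRCm38) was the most abundant member. Its listed transcript ENSMUST00000023068 had 67.97 and 55.37 FPKM in the cKO and 109.13 and 73.68 FPKM in the WT, from 4868 and 4180 reads and from 7373 and 5557 reads. Both cKO libraries were below both WT libraries, but cKO replicate 1 was close to WT replicate 2. The log2 fold change of -1.09 ± 0.27 did not pass (edgeR adjusted p = 0.0698). It passed by DESeq2 (adjusted p = 0.011) and with equal Sertoli counts (-2.40 ± 0.31, edgeR adjusted p = 0.00583). It turned to 0.43 ± 0.27 under TMM scaling and 0.46 ± 0.27 under RLE scaling, neither of which passed (adjusted p = 1 for both). A processed pseudogene, Gm10923, lies inside the gene on the other strand, and whether the libraries kept strand is not stated.

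Ugt8a (gene ENSMUSG00000032854, chromosome 3, 125865271 to 125938619, minus strand, GRCm38) was the least abundant member. Its listed transcript ENSMUST00000198610 had 53.37 and 21.27 estimated reads in the cKO and 0 in both WT libraries, or 0.81 and 0.30 FPKM against 0. The cKO libraries differed from each other, in proportion, by more than those of Stra8 or Rec8 did. With 3 counts over the WT group as the floor, the cKO mean of 30.1 normalized counts stood 16.8-fold above it. That fold leaves out the spread between the cKO libraries. The transcript passed (edgeR adjusted p = 0.0465). The call was narrow. It was lost without the filter on low counts (adjusted p = 0.0528), with equal Sertoli counts (0.0843), and without WT replicate 1 (0.231) or WT replicate 2 (0.236).

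The listed Ugt8a transcript is 1 of 3 annotated. It starts at 125915885, inside the gene and downstream of the outermost start, and its 1623 coding bases (541 residues) are as many as in the full-length transcript ENSMUST00000057944, which is not in the table. The level of the gene as a whole is therefore not given by these values. Exact zeros were frequent among listed transcripts, with 802 of 11304 (7.09%) at 0 in both WT libraries and 884 (7.82%) at 0 in both cKO libraries.

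Ratios of members within a library do not depend on the scaling between libraries. Stra8 stood at 1.53 and 2.01 times the FPKM of Rec8 in the cKO libraries, and at 0.154 and 0.160 times in the WT libraries. The genotypes did not overlap, and the ratio was 11.2-fold higher in the cKO, with a difference of 3.48 between the mean log2 ratios (SD 0.28 in the cKO and 0.04 in the WT, n = 2 each). The authors listed Stra8 as higher and Rec8 as lower, each with a log2 fold change of 1 or more in size. The direction of this ratio and part of its size therefore follow from that selection and are not a separate result. Smc1b stood at 6.50 and 6.95 times the FPKM of Rec8 in the cKO and at 4.03 and 2.07 times in the WT. The 8 ratios computed this way, those to marker lists below included, each had an exact permutation p (two-sided) of 0.333, the smallest that 4 libraries allow, except that of Smc1b to the early prophase markers (p = 0.667). None passed a test, and adjustment over the 8 could not lower these values.

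**Figure D4:**
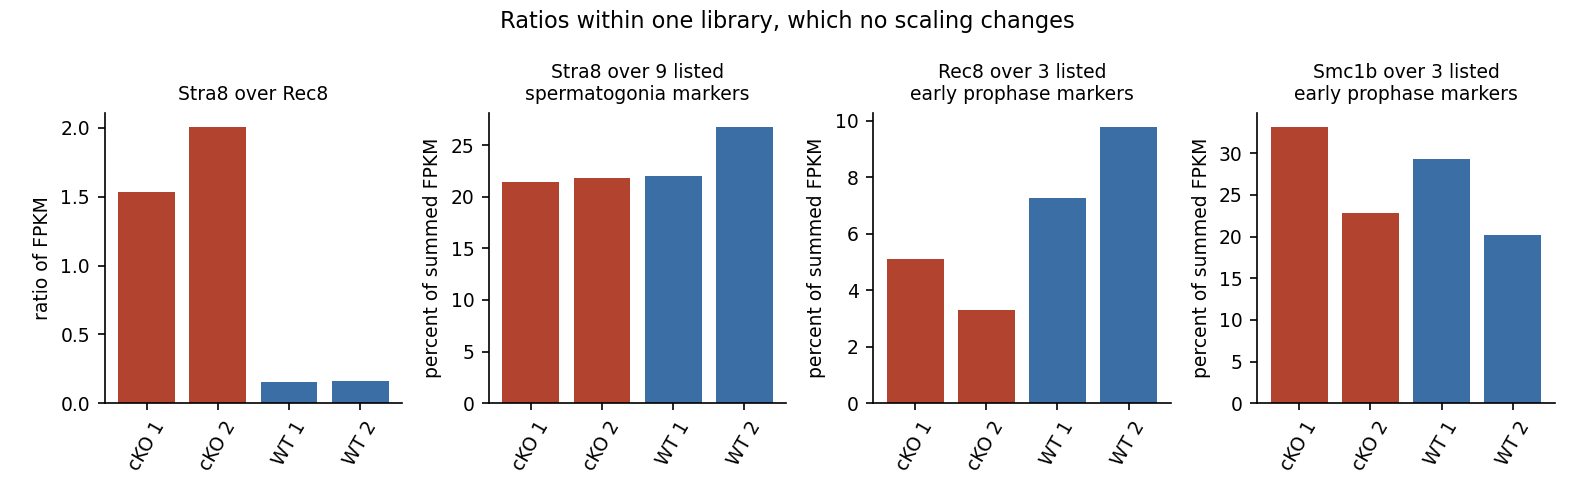
Ratios of FPKM within each library, with 1 bar per library, the cKO in red and the WT in blue, and each axis starting at 0. Stra8 over Rec8 is 1.53 and 2.01 in the cKO against 0.154 and 0.160 in the WT, while Stra8 over the summed spermatogonia markers is 21.4% and 21.9% in the cKO against 22.0% and 26.8% in the WT.

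Markers of the germ cell stages are given beside the members, without a test that links them. Of 14 spermatogonia markers 10 were listed and tested, Stra8 among them, and their median log2 fold change was 1.43, with 1 higher (the cyclin Ccnd2) and 0 lower by edgeR, all 10 at an unadjusted p under 0.05 as the table's selection gives. Under TMM 10 were higher (median 2.97), under library totals 9 (median 1.97), and with equal Sertoli counts 0 (median 0.14). The other 9 summed to 3709 and 3784 normalized counts in the cKO and 1190 and 1537 in the WT. Stra8 amounted to 21.4% and 21.9% of their summed FPKM in the cKO and to 22.0% and 26.8% in the WT. Both cKO shares lay below both WT shares, and the mean log2 share differed by -0.17. All 10 listed markers, Stra8 included, had a log2 fold change above 0, and 4 of the 14 are not listed. A like share in the genotypes therefore rests in part on the selection of the table. Whether the number of these cells accounts for the Stra8 values was not tested.

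For early meiotic prophase, 3 of 14 markers were listed, the central element genes Syce1, Syce2 and Syce3 of the synaptonemal complex, with 1 of 3 lower (Syce2) and a median of -1.21, which turned to 0.32 under TMM. With equal Sertoli counts all 3 were lower, at a median of -2.51. Their sum was 3061 and 3886 normalized counts in the cKO and 7914 and 8101 in the WT. Rec8 amounted to 5.10% and 3.29% of their summed FPKM in the cKO and to 7.28% and 9.78% in the WT. Both cKO values were below both WT values, with a difference of -1.04 between the mean log2 values. Smc1b amounted to 33.2% and 22.8% of the same sum in the cKO and to 29.3% and 20.2% in the WT, and here the genotypes overlapped. Of 11 listed pachytene spermatocyte markers 6 were lower, with a median of -1.60, while 1 was lower under TMM (median -0.08), 4 under library totals and 11 with equal Sertoli counts. Against their summed FPKM Rec8 was 0.556% and 0.355% in the cKO and 0.763% and 0.843% in the WT. Against 16 spermatid markers, of which 15 were lower, it was 1.86% and 0.288% in the cKO and 0.111% and 0.133% in the WT. Rec8, Smc1b and all listed markers of these stages had a log2 fold change below 0 with the authors' size factors. Their shares therefore also rest in part on the selection of the table. The part of these stage shifts in the Rec8 values was not tested.

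Somatic markers were higher in the cKO, by edgeR in 7 of 15 tested Sertoli, 7 of 8 Leydig and 4 of 8 leukocyte genes, with medians of 1.34, 1.92 and 1.89. No tested gene of these lists passed as lower. The listed transcript of the Leydig marker Hsd17b3, an enzyme of testosterone synthesis, ran the other way, with 0 reads in both cKO libraries and 132.76 and 3.28 reads in the WT libraries, and it was not tested because it did not pass the count filter. These counts rest on the scaling: 15 Sertoli, 8 Leydig and 8 leukocyte genes were higher under TMM, and 0, 1 and 0 with equal Sertoli counts, at medians of 0.05, 0.62 and 0.59. The summed normalized counts of the listed markers were 46600 and 47560 for Sertoli cells in the cKO against 18473 and 19948 in the WT, and 26333 and 31875 against 7572 and 6827 for Leydig cells. For leukocytes the sums were 3051 and 2935 in the cKO and 806 and 821 in the WT. Stra8, with 1.15, lay below the medians under the authors' size factors.

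Among 14 partners and regulators of meiotic entry, 7 were listed and tested, with 1 higher, 1 lower and a median of 1.30. Of these, Dmrt1, Sohlh1 and Kit also stand among the spermatogonia markers, so the medians of both lists are not separate results. The listed transcript of the cyclin Ccnb3 had 152 and 77.0 normalized counts in the cKO and 0 in both WT libraries, at least 63.8-fold higher (edgeR adjusted p = 0.0234). Dmrtb1, a transcription factor of the switch from mitosis to meiosis, fell to 162.71 and 207.48 FPKM in the cKO, against 319.86 and 430.25 FPKM in the WT (log2 fold change -1.56 ± 0.29, adjusted p = 0.0366). The cyclin Ccna2 (1.28 ± 0.31, adjusted p = 0.0712) and Dmrt1, which restrains Stra8 in spermatogonia (1.05 ± 0.28, adjusted p = 0.0894), did not pass. Neither did the receptor Kit (1.85 ± 0.49), the spermatogonial factor Sohlh1 (1.64 ± 0.44) or Mga, part of a repressor of meiotic genes (1.30 ± 0.38). Ccna2, Dmrt1, Kit, Sohlh1 and Mga were higher in both cKO libraries than in both WT libraries. The selection of called transcripts favours such a separation, and its share over all listed transcripts was not counted, so it adds nothing to these values. With equal Sertoli counts the list's median was 0.00, with 1 member higher and 1 lower. Under TMM and under library totals 6 members were higher and 0 lower, so that the call of Dmrtb1 as lower was lost.

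Of 20 enzymes and receptors of retinoic acid signalling, which acts upstream of Stra8, 8 were listed and tested, with 2 higher, 2 lower and a median of 1.33. This list also shares a gene with the spermatogonia markers. The retinaldehyde dehydrogenase Aldh1a1 had 541.14 and 486.93 FPKM in the cKO and 95.70 and 123.44 FPKM in the WT (1.69 ± 0.26, adjusted p = 0.0258). The listed transcript of the receptor Rara had 6.02 and 2.83 FPKM in the cKO and 0 in the WT (edgeR adjusted p = 0.0217). Its cKO mean in normalized counts stood 84.9-fold above the floor of 3 counts over the WT group. No other Rara transcript is listed, so the level of the gene as a whole is not given in either genotype. A transcript of its partner Rxra fell to 1.40 and 0.92 FPKM in the cKO, against 8.84 and 11.89 FPKM in the WT (-3.69 ± 0.42, adjusted p = 0.0175). The retinol dehydrogenase Rdh11 fell as well, with 8.13 and 6.97 FPKM in the cKO and 32.71 and 23.10 FPKM in the WT (-2.41 ± 0.30, adjusted p = 0.019). With equal Sertoli counts the median was 0.05, with 1 member higher and 2 lower, and under TMM it was 2.86, with 6 higher and 1 lower.

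Of 26 cohesin subunits and regulators apart from Rec8 and Smc1b, 8 were listed and 7 tested, with 0 higher and 2 lower by edgeR and a median of -1.31. All 7 had an unadjusted p under 0.05, and the median turned to 0.21 under TMM. Smc3, the subunit that pairs with SMC1B in the ring, fell to 18.75 and 15.78 FPKM in the cKO, against 35.04 and 24.58 FPKM in the WT (-1.31 ± 0.26, adjusted p = 0.0417). Ppp2r5c, a B56 regulatory subunit of PP2A of the family that binds shugoshin, fell to 45.91 and 43.10 FPKM in the cKO, against 72.34 and 64.51 FPKM in the WT (-1.15 ± 0.22, adjusted p = 0.0392). The cohesin loader Nipbl (-1.01 ± 0.23, adjusted p = 0.0601) did not pass. Under TMM and under library totals 0 of these 7 passed as lower, at a median of -0.79 under library totals. With equal Sertoli counts 7 passed as lower, at a median of -2.62.

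Of 9 genes that make or break down seminolipid around the UGT8A step, 6 were listed and tested, with 1 higher, 2 lower and a median of -1.11. Gnpat, which starts ether lipid synthesis, fell to 62.84 and 60.36 FPKM in the cKO, against 83.99 and 93.94 FPKM in the WT (-1.07 ± 0.23, adjusted p = 0.0499). Arsa, the arylsulfatase that removes the sulphate, fell by 1.15 ± 0.25 on the log2 scale (adjusted p = 0.0498). Psap, a lysosomal activator protein precursor, rose to 134.29 and 149.33 FPKM in the cKO, against 37.12 and 41.62 FPKM in the WT (1.31 ± 0.24, adjusted p = 0.0349). Agps, the enzyme after Gnpat, was at 1.14 ± 0.31 (adjusted p = 0.0984). Under library totals 2 members were higher and 0 lower, at a median of -0.57, which was 0.43 under TMM. With equal Sertoli counts 0 were higher and 4 lower, at a median of -2.40. The FPKM follow library totals, while the log2 fold changes given with an SE follow the authors' size factors.

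**Figure D5:**
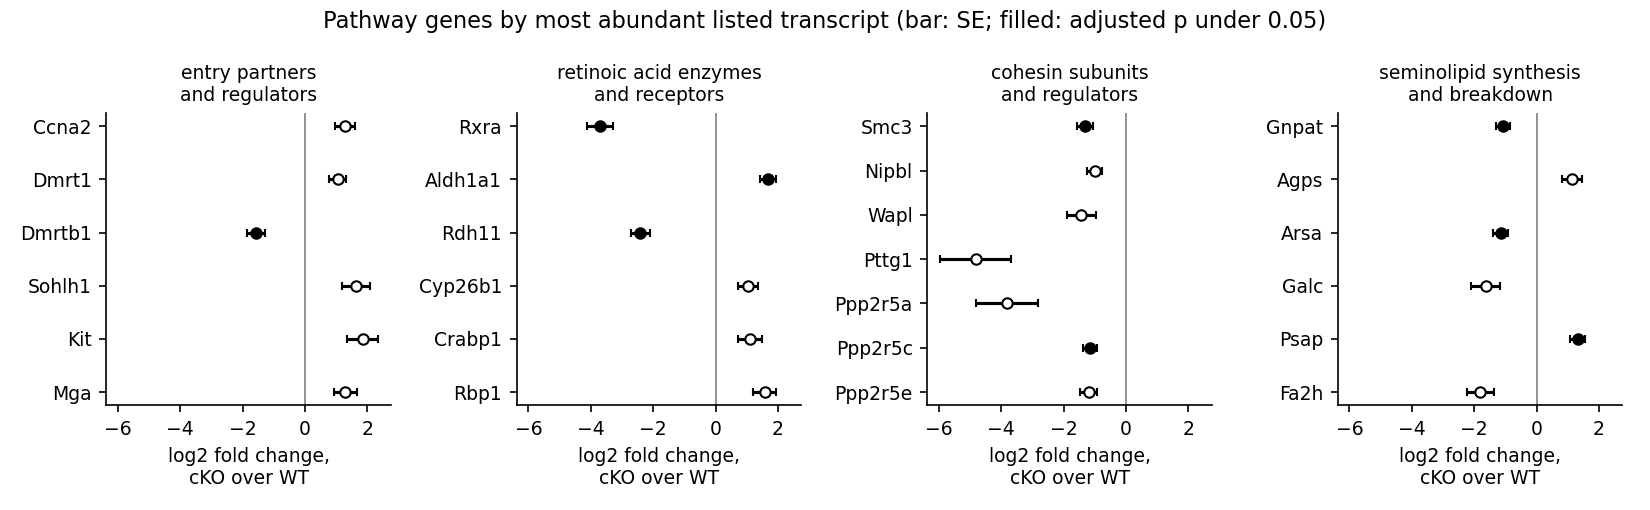
Log2 fold change (cKO over WT, bars for the SE) of the most abundant listed transcript of each tested pathway gene, with filled points for an adjusted p under 0.05. Genes at 0 in a genotype are left out. All cohesin genes shown lie below 0 with the authors' size factors (their median is 0.21 under TMM and -2.62 with equal Sertoli counts). The other lists hold points on both sides.

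The profiles of Stra8, Rec8 and Ugt8a over the 4 libraries were set beside 5460 listed transcripts, each the most abundant of its gene. These had a mean normalized count of at least 30. Likeness was the root mean square distance of centred log2(normalized count + 1) values. Nearest to Stra8 were Hmg20b (distance 0.018), Dpyd (0.019) and Aoc3 (0.021), and 858 transcripts, Stra8 itself included, lay within 0.25. Nearest to Rec8 were Tas1r3 (0.030), Pcsk2 (0.066) and Pou5f1 (0.068), with 123 within 0.25, Rec8 itself included. Ugt8a, with 43.1 and 17.0 normalized counts in the cKO and 0 in the WT, itself lay below the minimum mean of 30. A close match at 0 in the WT therefore could not occur. Nearest to Ugt8a were Uap1, Extl3 and Dennd1a, each at 0 in the WT and at distances of 0.48 to 0.49, with 0 within 0.25. These names and the 0 rest in part on that minimum. With only 4 libraries such likeness is common and describes the levels alone.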

How the data were processed

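Per the file headers, the authors' table gives expected counts and FPKM per Ensembl transcript and library, the mean normalized count (a signal over all 4 libraries), log2 fold changes with a test statistic (a score) and p-values. The deposited FPKM files of single samples repeat the table. Per the submitters' processing notes the build is mm9, but the table's coordinates matched GRCm38 (GENCODE vM21) for 98.7% of the genes found there and for all 4 members, so GRCm38 is given. No source used here names the aligner or the counter.

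The authors' size factors were recovered from rounded counts and mean normalized counts (largest relative misfit 4.9e-10), library totals from reads, length and FPKM, and the number of transcripts tested from p over adjusted p. The main test, edgeR 4.0.16, took the expected counts after rounding (glmQLFit, glmQLFTest, genotype only, filterByExpr minimum count 10) in R 4.3.3, with DESeq2 1.42.0 and limma 3.58.1 as alternatives. The script was tested on simulated data. Replicates were not duplicates (chi-square per degree of freedom 31.7 in the cKO and 37.0 in the WT). The reads carry no molecular identifiers, so intervals and floors hold counting error at best. The intervals on the Stra8 shares take estimated reads as counted. Nothing states how samples relate to animals, so a p-value here reflects only how far these libraries spread, which may be technical.

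Named genes are all member transcripts, the pathway genes that passed, the first 2 tested of each pathway list, and the 3 nearest profiles. Dmrt1, Kit, Sohlh1, Mga, Ccnd2 and Syce1 to Syce3 were added after their values were seen. The members and lists were chosen with earlier results of these data known. A gene in a list is represented by its most abundant listed transcript. Alternatives were 4 scalings, 2 filters, other tests, log2(FPKM + 1) and log2(FPKM + 0.1), a replicate block and leaving out each library.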

Additional observations from a re-analysis of the deposited data

How the results depend on the processing

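Most of these calls changed with the scaling. Relative to the authors' size factors, TMM, RLE and library totals moved log2 fold changes up by 1.53, 1.56 and 0.53, and equal Sertoli counts moved them down by 1.29. TMM and RLE take a table of called transcripts as mostly unchanged. Equal Sertoli counts take 15 listed markers, all higher under the authors' size factors, as unchanged in sum. Over all listed transcripts, 1113 were higher and 4431 lower. TMM gave 3466 and 1278, RLE 3479 and 1331, library totals 2792 higher, equal Sertoli counts 317 and 7171, DESeq2 1996 higher, glmTreat 281 and 2074, limma on log2(FPKM + 1) 2667 higher and on log2(FPKM + 0.1) 2123 and 2741. Leaving out a library gave 0 to 2263 higher and 0 to 6157 lower. edgeR called 0 without either WT library, where 2305 and 2580 were higher and 6046 and 5763 lower at an unadjusted p under 0.05. DESeq2 was not run there.

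Of the 5 member transcripts, 1 higher and 1 lower became 3 and 0 under TMM and under RLE, 3 higher under library totals, 0 and 2 with equal Sertoli counts, 0 higher without a filter, with 1 CPM in 2 samples and by glmTreat (3, 2 and 2 higher at an unadjusted p under 0.05), 2 and 2 by DESeq2, and 2 or 3 higher by limma with a pseudocount of 1 or 0.1. Leaving out a library gave 0 to 2 higher and 0 to 2 lower. Stra8 was past the threshold at 2.68 (TMM), 2.71 (RLE), 1.68 (library totals), 1.53 and 1.69 (limma with 1 and 0.1), reversed to -0.14 with equal Sertoli counts, and ranged from 0.91 to 1.43 without one library. Rec8 was no longer past it at -0.76 (TMM) and -0.73 (RLE), and ranged from -2.53 to -2.05 without one library. Ugt8a was no longer past it with equal Sertoli counts (fitted 7.58), without a filter (7.96), by glmTreat (7.96) or by limma with a pseudocount of 1 (0.62), ranged from 7.04 to 8.38 without one library, and was not tested at 1 CPM in 2 samples. Smc1b passed as lower at -2.40 with equal Sertoli counts and reversed to 0.43 (TMM) and 0.46 (RLE).

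The labels do not say that replicate numbers pair the samples. Same-numbered libraries deviated together with a correlation of 0.129 over 10445 transcripts. With the replicate block, 697 transcripts were higher, and 0 members were higher (3 at an unadjusted p under 0.05) and 2 lower, with Ugt8a not past the threshold (7.94, adjusted p = 0.114) and Smc1b lower (adjusted p = 0.0261). Depth limits Ugt8a and the longer Stra8 transcript, which have under 100 reads in every library.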
